A study of Homo sapiens with 39 samples.

Results

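The 10 genes described here encode the glucose transporter SLC2A1 and 9 enzymes of glycolysis and lactate production, HK2, GPI, PFKP, ALDOA, GAPDH, PGK1, ENO1, PKM and LDHA. They were taken by symbol from a table of 46706 symbols, and all 10 passed the expression filter that left 14404 genes for testing. Levels are in TPM, transcripts per 1000000, a unit corrected for transcript length, so that levels of different genes can be compared. RNA came from HCC1428-LTED, an estrogen receptor-positive breast cancer cell line kept for a long time without estrogen. All cells grew in medium with charcoal-stripped serum and were treated for 24 hours. The 12 treated groups received AZD-SAR, GDC-SAR, SAR439859, Fulvestrant, AZD9496 or GDC-0810 at 300 or 30 nM, and the control group received DMSO. By the labels, AZD-SAR carries the SAR439859 side chain on the AZD9496 scaffold, and GDC-SAR carries it on the GDC-0810 scaffold. Each of the 13 groups had 3 libraries, 39 in all. All libraries came from this 1 line, and the labels do not say whether the 3 were separate cultures, so p-values measure the spread between libraries, which may be technical.

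SLC2A1 (GLUT1) is a facilitative transporter that brings glucose into many cell types and is abundant in many tumours. Hexokinase traps the sugar as glucose 6-phosphate, GPI, PFKP and ALDOA prepare and split it, GAPDH, PGK1, ENO1 and PKM carry it to pyruvate with a yield of ATP, and LDHA reduces pyruvate to lactate. In breast cancer cells the estrogen receptor, MYC and the hypoxia-inducible factor HIF1 have each been tied to the transcription of genes in this pathway.

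Sequencing depth is unknown, since the table gives TPM only. Libraries listed 15818 to 26756 genes above 0, the lowest being SAR439859 30 nM replicate 3. The 3 SAR439859 30 nM libraries agreed least with each other (mean Pearson correlation with the other libraries of the group 0.890 to 0.921). All 7 luminal epithelial markers had medians of at least 1 TPM, as did 0 of 3 basal and 0 of 3 endothelial markers, 1 of 5 fibroblast markers (COL1A1) and 1 of 4 immune markers (CD68). The summed fibroblast markers ran from 9.29 to 23.8 TPM in treated libraries and from 7.32 to 9.39 TPM in DMSO libraries. The sums ran from 4616 to 11300 TPM in treated libraries and from 4143 to 4660 TPM in DMSO libraries for luminal markers, and from 4.09 to 14.4 TPM and from 6.95 to 8.50 TPM for immune markers. Basal markers summed to at most 3.13 TPM and endothelial markers to at most 1.87 TPM in any library. The part of these markers in the results was not tested. By the labels, 2 of the 3 DMSO libraries had a barcode that was also used for a treated library, and no pool or lane is named. A pool that held DMSO apart cannot be told apart from treatment in the comparisons with DMSO. The running numbers in the library titles also set DMSO apart: its 3 libraries come before all treated libraries, with a wide gap between. Whatever went with these numbers cannot be told apart from treatment in those comparisons either. Processed pseudogenes held at most 4.37% of a member's TPM (HK2) and at most 1.77% for the other 9.

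Promoter sequence is shown for the pair of genes with the largest differences from DMSO, SLC2A1 and LDHA, and for PGK1, whose group means lay above DMSO. All 3 are textbook HIF1 targets. Each line gives the 250 bases before the RefSeq transcription start (GRCh38.p14), 5′ to 3′ on the strand of the gene. Capitals mark the HIF core letters ACGTG or GCGTG, searched on both strands, with overlapping matches joined. The windows are chr1:42958869-42959118 on the minus strand for SLC2A1, chr11:18394313-18394562 on the plus strand for LDHA and chrX:78103998-78104247 on the plus strand for PGK1.
SLC2A1: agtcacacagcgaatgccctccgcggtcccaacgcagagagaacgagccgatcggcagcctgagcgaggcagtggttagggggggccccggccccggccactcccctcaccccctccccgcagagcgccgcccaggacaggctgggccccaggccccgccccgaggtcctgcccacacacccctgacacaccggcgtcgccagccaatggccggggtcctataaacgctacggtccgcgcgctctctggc
LDHA: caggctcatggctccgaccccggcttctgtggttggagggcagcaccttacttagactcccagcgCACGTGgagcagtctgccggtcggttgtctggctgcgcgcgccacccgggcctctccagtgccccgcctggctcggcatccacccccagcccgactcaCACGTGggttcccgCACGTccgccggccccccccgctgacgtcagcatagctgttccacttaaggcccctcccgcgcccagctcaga
PGK1: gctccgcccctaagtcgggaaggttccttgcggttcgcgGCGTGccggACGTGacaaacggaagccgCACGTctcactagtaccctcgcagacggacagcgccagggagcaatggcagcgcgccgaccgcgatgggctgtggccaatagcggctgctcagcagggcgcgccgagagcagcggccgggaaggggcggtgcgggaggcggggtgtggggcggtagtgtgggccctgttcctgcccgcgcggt
LDHA and PGK1 each held 3 marked stretches, lying 179, 81 and 68 bases before the start in LDHA and 206, 197 and 178 bases before it in PGK1. SLC2A1 held none in this window. Among the members not shown, HK2 also held 3. At least 1 such stretch was found in 7 of the 10 members and in 43.1% of 27305 RefSeq promoter windows of the same length, and at least 3 in 5.5% of them. In LDHA 2 of the stretches are the E-box CACGTG, the letters read by MYC with MAX, which contains ACGTG and occurs in 6.49% of windows. GAPDH was the other member with an E-box. The full estrogen response element (GGTCA, any 3 bases, TGACC) was in 0 of 10 members and in 0.0439% of windows. These matches describe the letters of the windows and were not tested as binding sites.

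SLC2A1 and LDHA differed from DMSO by more than the other members and in more comparisons. Across the 12 comparisons with DMSO there were 42 calls among 120 tests of a member (limma, Benjamini-Hochberg adjusted p < 0.05 over all tested genes), and 22 of these were SLC2A1 or LDHA, all lower. All 22 held when each library of the compared groups was left out in turn, while 4 of the 20 calls of the other 8 members did. Median differences of the 12 were -1.50 for SLC2A1 and -1.18 for LDHA on the log2(TPM + 1) scale, against -0.47 for ALDOA, -0.44 for ENO1, -0.28 for GAPDH, -0.27 for PKM and -0.18 for PFKP. They were 0.05 for GPI, 0.31 for PGK1 and 0.32 for HK2. The 12 comparisons share the DMSO libraries. In bulk RNA, fewer cells that express a gene and less RNA of it per cell cannot be told apart.

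With AZD-SAR 5 members were called lower at 300 nM, where 25.6% of all tested genes were called and 12.8% called lower, and 3 at 30 nM, where the shares were 20.6% and 8.66%. With GDC-SAR 3 were called lower at 300 nM (20.3% of genes called, 10.5% lower) and 5 at 30 nM (22.5%, 11.1% lower). With SAR439859 6 were called lower at 300 nM (24.1%, 12.8% lower). At 30 nM (25.5%) there were 4 lower, with 10.2% of genes lower, and 1 higher, with 15.3% higher. The 3 ligands with the SAR439859 side chain thus had 3 to 6 of 10 members called, against 20.3% to 25.6% of all genes. The members were chosen with earlier results of these data known, so these counts are a description and not a test of the set.

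With Fulvestrant 4 were called lower at 300 nM (19.2% of genes called, 8.12% lower) and 2 at 30 nM (19.1%, 7.82% lower). With AZD9496 1 was called lower at 300 nM (5.93%, 2.21% lower). At 30 nM (11.3%) 1 was lower, with 2.05% of genes lower, and 1 higher, with 9.21% higher. With GDC-0810 3 were called lower at 300 nM (16.0%, 9.04% lower) and 3 at 30 nM (16.8%, 8.83% lower). With 10 members, 2 or 3 calls among them lie near these backgrounds in most of the comparisons. The median difference of the 10 members ran from -0.48 with 300 nM SAR439859 to 0.15 with 30 nM AZD9496, while that of all tested genes ran from 0 to 0.18.

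The libraries of a treated group and of DMSO did not overlap for 6 members with 300 nM AZD-SAR (39.9% of all genes) and 7 at 30 nM (45.1%), and for 7 with 300 nM GDC-SAR (42.9%) and 8 at 30 nM (46.2%). With SAR439859 there were 7 at 300 nM (44.0%) and 5 at 30 nM (34.0%), and with Fulvestrant 7 (41.3%) and 8 (46.3%). With AZD9496 there were 5 (31.6%) and 6 (37.4%), and with GDC-0810 7 (37.3%) and 6 (43.4%). HK2 lay above DMSO in 8 of these comparisons and below it with 300 nM GDC-0810. GPI, GAPDH and ALDOA lay above it with AZD9496 only (GPI and GAPDH at both doses, ALDOA at 30 nM), and the other separated members lay below it.

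**Figure D1:**
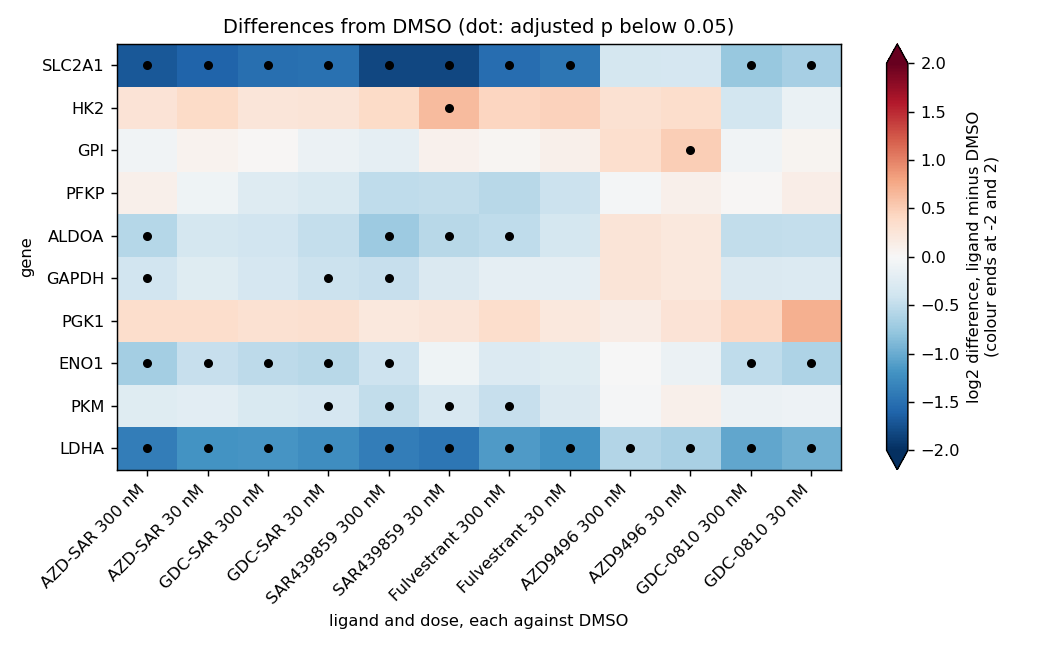
Log2 differences of the 10 members (rows) for each ligand and dose against DMSO (columns), blue for lower and red for higher, with a dot where the adjusted p was below 0.05 (3 libraries per group). SLC2A1 and LDHA carry 22 of the 42 dots, and PGK1 and PFKP carry none.

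SLC2A1 (ENSG00000117394, chromosome 1, 42925375 to 42959176 in GRCh38, minus strand) lay lowest with AZD-SAR, GDC-SAR, SAR439859 and Fulvestrant, and closer to DMSO with AZD9496 and GDC-0810. Libraries of cells given AZD-SAR held 45.6, 51.0 and 50.6 TPM at 300 nM and 49.4, 49.5 and 58.8 TPM at 30 nM. With GDC-SAR there were 51.1, 55.2 and 62.1 TPM at 300 nM and 51.1, 58.2 and 61.1 TPM at 30 nM. The 2 hybrids overlapped at 30 nM. At 300 nM the highest AZD-SAR library (51.02 TPM) lay just below the lowest GDC-SAR library (51.05 TPM).

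SAR439859 gave 43.8, 45.6 and 45.6 TPM at 300 nM and 41.3, 45.5 and 48.8 TPM at 30 nM. Fulvestrant, an injected receptor degrader in clinical use, gave 55.5, 48.7 and 62.9 TPM at 300 nM and 57.8, 58.0 and 58.8 TPM at 30 nM. Thus the 24 libraries of these 4 ligands formed a low band from 41.3 to 62.9 TPM with a median of 51.0 TPM.

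AZD9496 gave 112.4, 148.9 and 119.7 TPM at 300 nM and 134.6, 128.2 and 119.2 TPM at 30 nM. GDC-0810 gave 83.6, 87.2 and 116.8 TPM at 300 nM and 99.1, 102.0 and 101.8 TPM at 30 nM. DMSO libraries held 162.6, 171.9 and 149.4 TPM. The highest AZD9496 library at 148.9 TPM lay just below the lowest DMSO library, so all 36 treated libraries were below all 3 DMSO libraries, as they were for 3.64% of tested genes.

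**Figure D2:**
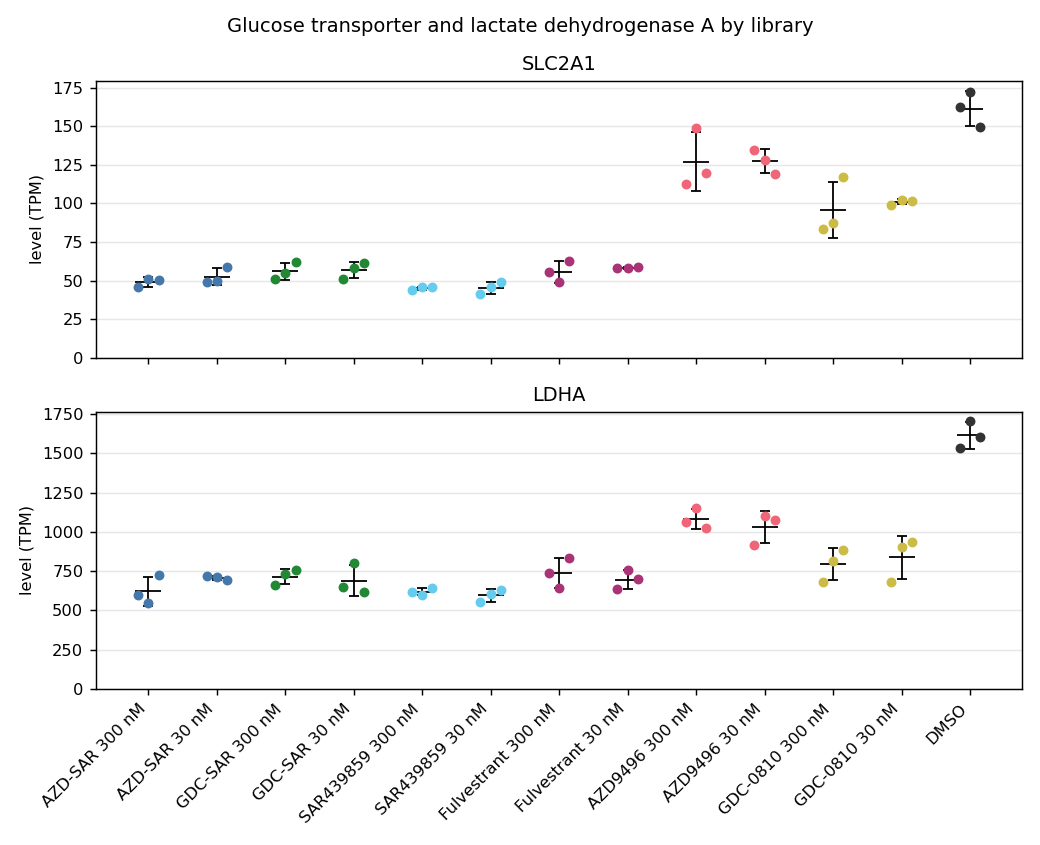
TPM of SLC2A1 (top) and LDHA (bottom) in each library by treatment, ligands on the left and DMSO on the right. Points are single libraries, bars the mean and SD of 3. For SLC2A1 the first 8 groups lie at 41.3 to 62.9 TPM and the AZD9496 and GDC-0810 groups lie between them and DMSO.

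Differences of SLC2A1 from DMSO were -1.70 with AZD-SAR, -1.51 with GDC-SAR, -1.82 with SAR439859 and -1.52 with Fulvestrant at 300 nM, all called (SE 0.12, adjusted p at most 1.5e-10). The 30 nM values of these 4 ligands, -1.60, -1.49, -1.81 and -1.45, were all called too. GDC-0810 lowered it by a smaller amount, with -0.76 at 300 nM (adjusted p = 6.4e-05) and -0.67 at 30 nM (adjusted p = 2.8e-04). With AZD9496 the differences of -0.35 at 300 nM (adjusted p = 0.078) and -0.34 at 30 nM (adjusted p = 0.062) missed the threshold. Both became calls after median-of-ratios scaling, with -0.46 (adjusted p = 0.017) and -0.55 (adjusted p = 0.0037). The 300 nM value also became a call without AZD9496 300 nM replicate 2, the 148.9 TPM library (-0.47, adjusted p = 0.029). In order of group means, the libraries of neighbouring groups did not overlap at 3 places: between 30 nM Fulvestrant and 300 nM GDC-0810, between 30 nM GDC-0810 and 300 nM AZD9496, and between 30 nM AZD9496 and DMSO. All other neighbours in that order overlapped.

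LDHA (ENSG00000134333, chromosome 11, 18394388 to 18408425, plus strand), which encodes the A subunit of lactate dehydrogenase, was lower with every ligand at both doses. AZD-SAR libraries held 598, 545 and 723 TPM at 300 nM and 717, 711 and 693 TPM at 30 nM, and the GDC-SAR libraries 659, 729 and 754 TPM at 300 nM and 650, 799 and 617 TPM at 30 nM. SAR439859 gave 619, 596 and 643 TPM at 300 nM and 550, 606 and 628 TPM at 30 nM. Fulvestrant gave 741, 642 and 833 TPM at 300 nM and 634, 756 and 697 TPM at 30 nM. The 4 ligands of the SLC2A1 low band thus ran from 545 to 833 TPM for LDHA, a range that some GDC-0810 libraries shared.

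AZD9496 libraries held 1063, 1150 and 1028 TPM at 300 nM and 914, 1100 and 1077 TPM at 30 nM. GDC-0810 gave 683, 815 and 883 TPM at 300 nM and 680, 900 and 934 TPM at 30 nM. DMSO libraries held 1535, 1705 and 1607 TPM, and all 36 treated libraries lay below them. Unlike SLC2A1, LDHA showed no gap between the ligands of the SLC2A1 low band and GDC-0810: Fulvestrant at 300 nM and GDC-0810 at 300 nM overlapped.

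All 12 differences of LDHA from DMSO were called lower, as they were for 1.24% of tested genes. At 300 nM they were -1.38 with AZD-SAR, -1.18 with GDC-SAR, -1.38 with SAR439859, -1.14 with Fulvestrant, -0.58 with AZD9496 and -1.03 with GDC-0810 (SE 0.13). At 30 nM they were -1.19, -1.24, -1.44, -1.22, -0.65 and -0.96 in that order. The largest adjusted p of the 12 was 0.0041. In the fits that left out 1 library it reached 0.031 at most. LDHA fell relative to GAPDH within each library too: group means of the ratio of LDHA to GAPDH TPM ran from 0.253 to 0.351 in the 12 treated groups, against 0.563 in DMSO. On the log2 scale the highest treated library for this ratio was at -1.46 and the lowest DMSO library at -0.94, so they did not overlap.

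ALDOA (ENSG00000149925, chromosome 16, 30064164 to 30070457), the aldolase that splits fructose 1,6-bisphosphate, was the most abundant member, with a mean of 9793 TPM over the 39 libraries and place 8 in the whole table. At 300 nM it averaged 8323 ± 2154 TPM with AZD-SAR, 9300 ± 1144 TPM with GDC-SAR, 7364 ± 1346 TPM with SAR439859 and 8555 ± 1587 TPM with Fulvestrant. It averaged 14426 ± 1384 TPM with AZD9496 and 8715 ± 2007 TPM with GDC-0810 at that dose, against 12102 ± 1276 TPM in DMSO (SD, n = 3). All ligands other than AZD9496 thus lay below DMSO in all libraries, and 5 of the 6 AZD9496 libraries lay above all 3 DMSO libraries. It was called lower in 4 of 12 comparisons: -0.57 with 300 nM AZD-SAR, -0.73 with 300 nM SAR439859, -0.55 with 30 nM SAR439859 and -0.51 with 300 nM Fulvestrant (SE 0.18). The call with 300 nM SAR439859 held without each single library. The other 3 each ended in 3 to 4 of the 6 fits that left out 1 library (adjusted p 0.056 to 0.24), each of them without DMSO replicate 2. With AZD9496 the differences of 0.25 at 300 nM and 0.21 at 30 nM were not called (adjusted p = 0.48 and 0.51), and with median-of-ratios scaling they were 0.14 and -0.01.

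GAPDH (ENSG00000111640, chromosome 12, 6533927 to 6538374), the glyceraldehyde 3-phosphate dehydrogenase often used as a loading standard, followed ALDOA. At 300 nM it averaged 2226 ± 420 TPM with AZD-SAR, 2274 ± 194 TPM with GDC-SAR, 2104 ± 304 TPM with SAR439859 and 2567 ± 376 TPM with Fulvestrant. It averaged 3435 ± 396 TPM with AZD9496 and 2369 ± 383 TPM with GDC-0810, against 2873 ± 63.0 TPM in DMSO. The 30 libraries of the 5 ligands other than AZD9496 lay below all DMSO libraries, and the 6 AZD9496 libraries lay above them. Calls were -0.38 with 300 nM AZD-SAR, -0.42 with 30 nM GDC-SAR and -0.46 with 300 nM SAR439859 (SE 0.14). The last ended without SAR439859 300 nM replicate 1 (-0.35, adjusted p = 0.11), and the other 2 each ended in 5 of 6 such fits (adjusted p 0.058 to 0.23). The higher AZD9496 values, 0.25 at 300 nM and 0.20 at 30 nM, were not called (adjusted p = 0.33 and 0.37) and became 0.14 and -0.01 with median-of-ratios scaling.

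ENO1 (ENSG00000074800, chromosome 1, 8861000 to 8879250), which encodes alpha-enolase, was called lower in 7 of 12 comparisons. At 300 nM it averaged 127 ± 35.4 TPM with AZD-SAR, 138 ± 4.70 TPM with GDC-SAR, 150 ± 24.8 TPM with SAR439859 and 165 ± 21.1 TPM with Fulvestrant. It averaged 198 ± 23.0 TPM with AZD9496 and 142 ± 28.9 TPM with GDC-0810, against 199 ± 26.0 TPM in DMSO. Both hybrids and GDC-0810 were called at both doses, with -0.67 (300 nM) and -0.47 (30 nM) for AZD-SAR, -0.52 and -0.56 for GDC-SAR, and -0.50 and -0.61 for GDC-0810 (SE 0.16). The seventh call was -0.42 with 300 nM SAR439859. The AZD-SAR call at 300 nM held without each single library. The other 6 calls each ended in 2 to 4 of 6 such fits (adjusted p 0.051 to 0.24), all 6 of them without DMSO replicate 2, the highest DMSO library at 228 TPM.

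PKM (ENSG00000067225, chromosome 15, 72199029 to 72231822), the pyruvate kinase of the last ATP-yielding step, averaged 442 ± 23.6 TPM with AZD-SAR, 426 ± 7.50 TPM with GDC-SAR, 372 ± 20.9 TPM with SAR439859 and 382 ± 45.9 TPM with Fulvestrant at 300 nM. It averaged 517 ± 66 TPM with AZD9496 and 482 ± 14.7 TPM with GDC-0810, against 525 ± 6.34 TPM in DMSO. The table has 1 value per symbol, so the M1 and M2 splice forms of PKM cannot be told apart. It was called lower with SAR439859 at 300 nM (-0.49) and 30 nM (-0.31), with 300 nM Fulvestrant (-0.46) and with 30 nM GDC-SAR (-0.33, SE 0.12). The 2 calls at 300 nM held without each single library, and the 2 at 30 nM each ended in 5 of 6 such fits (adjusted p 0.080 to 0.23). In SAR439859 at 30 nM, replicate 1 held 541 TPM and the other 2 libraries 363 and 383 TPM.

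**Figure D3:**
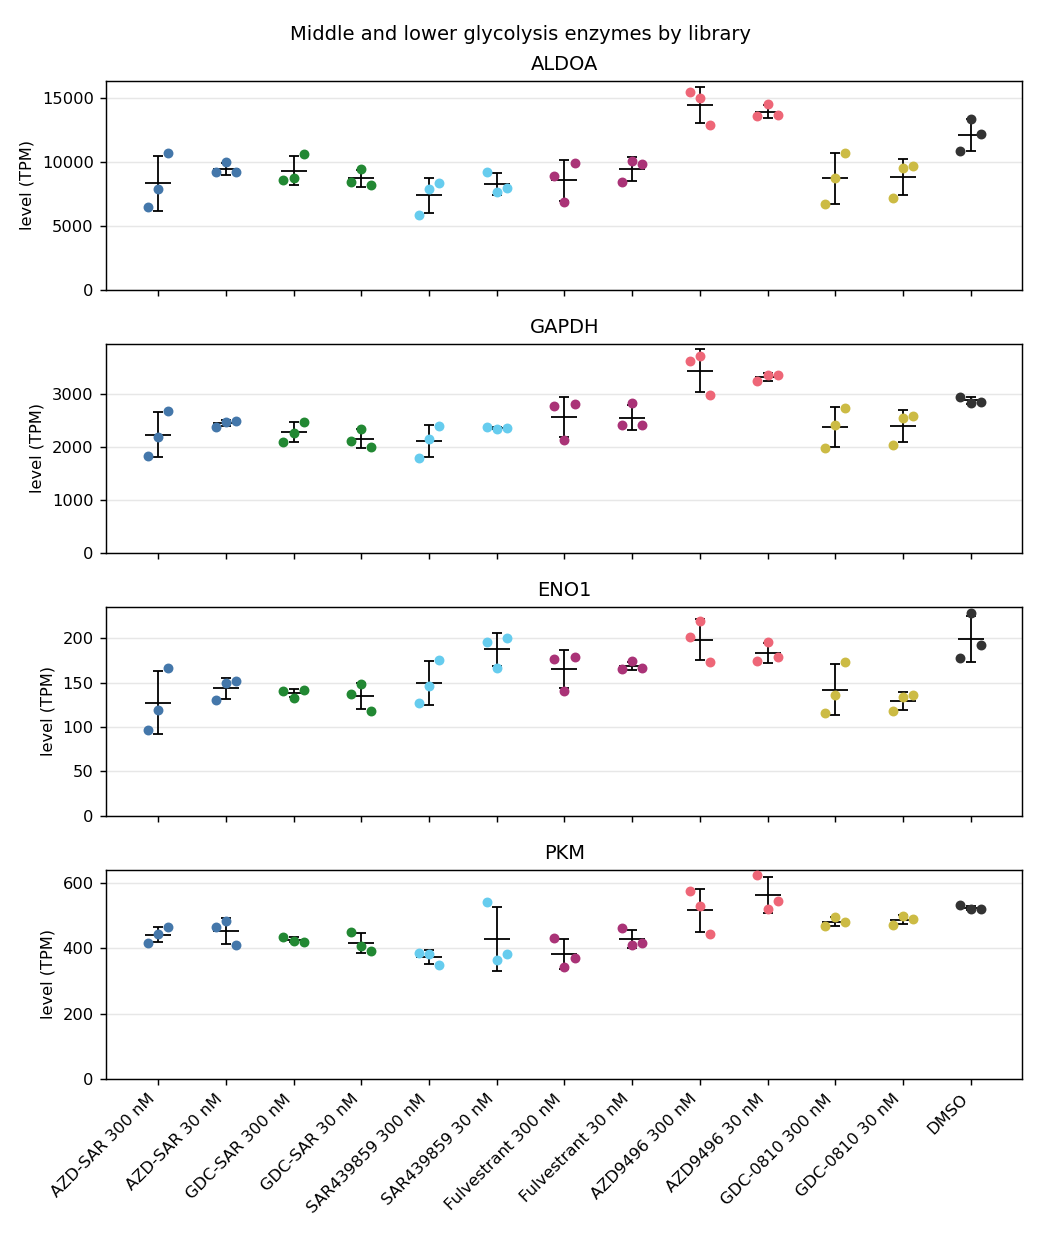
TPM of ALDOA, GAPDH, ENO1 and PKM in each library by treatment, ligands on the left and DMSO on the right. Points are single libraries, bars the mean and SD of 3. For ALDOA and GAPDH the AZD9496 groups average 14426 and 3435 TPM at 300 nM, above the 12102 and 2873 TPM of DMSO, while the other ligands lie below.

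The enzymes of the first steps, HK2, GPI and PFKP, had 2 calls among their comparisons with DMSO, both higher. HK2 (ENSG00000159399, chromosome 2, 74833981 to 74893359), an inducible hexokinase, was the least abundant member, with group means of 3.97 to 9.02 TPM among the treated groups, against 5.36 ± 0.51 TPM in DMSO. It lay above all DMSO libraries in 28 of 36 treated libraries and below them in 6, all 6 being GDC-0810 or AZD-SAR libraries. The 1 call was 0.63 with 30 nM SAR439859 (SE 0.18, adjusted p = 0.010), where the libraries held 10.2, 6.21 and 10.7 TPM. It ended without SAR439859 30 nM replicate 1 (0.53, adjusted p = 0.051) or replicate 3 (0.50, adjusted p = 0.061). GPI (ENSG00000105220, chromosome 19, 34359480 to 34402413), glucose 6-phosphate isomerase, had 438, 407 and 395 TPM with 30 nM AZD9496, against 264, 313 and 307 TPM in DMSO. That difference of 0.49 (SE 0.15, adjusted p = 0.037) was its only call. It ended in all 6 fits without 1 library (adjusted p 0.065 to 0.14) and with median-of-ratios scaling (0.27, adjusted p = 0.27). PFKP (ENSG00000067057, chromosome 10, 3066333 to 3137712), the platelet-type phosphofructokinase, had no call, with an unadjusted p below 0.05 in 2 of 12 comparisons. Its treated libraries ran from 19.4 to 64.8 TPM, against 37.6 to 45.2 TPM in DMSO, and its differences from -0.56 to 0.13 (SE 0.25). The difference with 30 nM SAR439859 became a call without replicate 1 of that group, its 48.8 TPM library (-0.86, adjusted p = 0.0075). With median-of-ratios scaling PFKP was called lower with 300 nM Fulvestrant (-0.64, adjusted p = 0.041) and 30 nM SAR439859 (-0.60, adjusted p = 0.046). With only the compared libraries in the fit it was called lower in 3 comparisons, with SAR439859 at 300 nM and Fulvestrant at both doses (adjusted p 0.026 to 0.045).

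PGK1 (ENSG00000102144, chromosome X, 77910739 to 78129296), phosphoglycerate kinase, was the member whose level went with library number in the most groups. Titles carry a running library number, and in 13 of 13 groups the library with the lowest number in its group had the most PGK1, as was so for 34 of 14404 tested genes (0.236%). These first libraries held 213 to 333 TPM with a median of 270 TPM in the 12 treated groups, against 270 TPM in DMSO. The other libraries held 140 to 267 TPM with a median of 189 TPM in the treated groups (24 libraries), against 123 and 139 TPM in DMSO. Thus the first libraries of treated cells lay around the first DMSO library, and all 24 others lay above the 2 other DMSO libraries. Group means were above DMSO in all 12 comparisons, by 0.15 to 0.72 (SE 0.30), with 0 calls by limma (smallest adjusted p = 0.096, unadjusted p below 0.05 in 1 of 12), and PFKP and PGK1 were thus called in none of the 12 comparisons, as were 54.2% of tested genes. The largest difference, with 30 nM GDC-0810, became a call without DMSO replicate 1 (1.07, adjusted p = 0.020). PFKP was highest in the first library in 10 of 13 groups and PKM in 9. SLC2A1 and HK2 were each lowest in the first library in 10 of 13 groups, and ALDOA in 9. What the running number stands for (a plate, a day or an extraction) is not labelled, and its part in the values of these members was not tested. All DMSO libraries have lower numbers than all treated libraries, so the number cannot be told apart from treatment in the comparisons with DMSO.

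**Figure D4:**
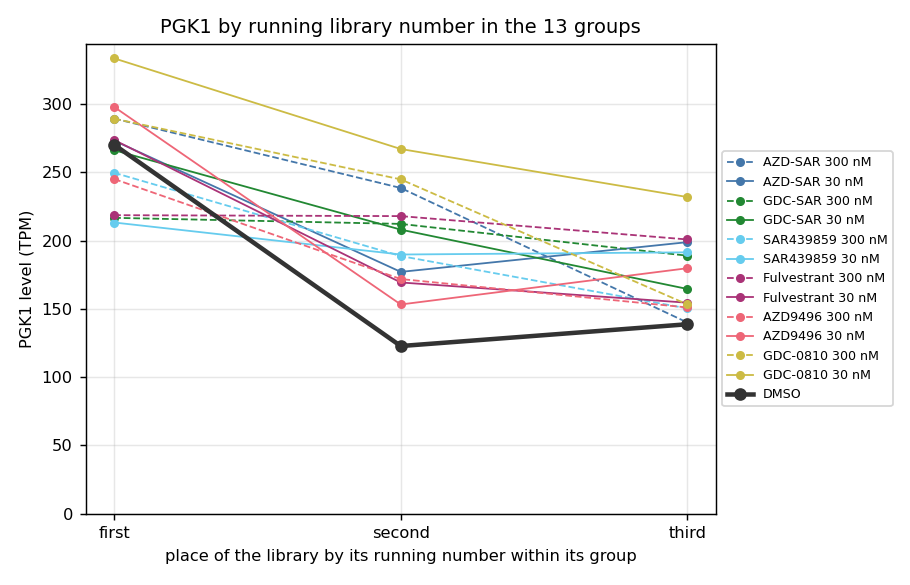
PGK1 TPM of the 3 libraries of each group in the order of their running numbers, 1 line per group and the thick black line for DMSO. The first library is the highest in 13 of 13 groups, at 213 to 333 TPM in treated groups and 270 TPM in DMSO.

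The ligands were then compared with each other at the same dose. Their differences do not use the DMSO means, while the estimate of the spread includes the DMSO libraries. A moderated F test among the 6 ligands called 6 members at 300 nM, with 4.91% of all genes called, and 4 at 30 nM, with 5.11% called. SLC2A1 had the largest F at both doses, 48.6 each (adjusted p = 4.2e-10 at 300 nM and 3.1e-10 at 30 nM). LDHA followed with 11.0 (adjusted p = 4.6e-04) and 9.43 (adjusted p = 0.0014). Both held without each single library. ALDOA and GAPDH were called at both doses, and at 300 nM both calls ended without AZD9496 300 nM replicate 1 (adjusted p = 0.060 and 0.070) or replicate 2 (0.069 and 0.11). At 30 nM the ALDOA call ended in 17 of 18 such fits and the GAPDH call in 15. HK2 and PKM, called at 300 nM (adjusted p = 0.039 and 0.043), ended in 11 and 13 of 18.

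The side chain was tested by setting each hybrid against the ligand that shares its scaffold. On the GDC-0810 scaffold SLC2A1 was lower with GDC-SAR than with GDC-0810 by -0.75 at 300 nM (95% interval -0.99 to -0.51, adjusted p = 4.7e-04) and by -0.82 at 30 nM (-1.06 to -0.58, adjusted p = 8.3e-05). It was the 1 member called at either dose, with 1.25% of all genes called and 0.687% called lower at 300 nM, and 1.28% and 0.701% at 30 nM. These calls held without each single library but ended when the fit was restricted to the 6 libraries compared (adjusted p = 0.32 and 0.051). LDHA differed by -0.15 (-0.40 to 0.11) and -0.28 (-0.54 to -0.02) in that pair, without a call. On the AZD9496 scaffold SLC2A1 was lower with AZD-SAR than with AZD9496 by -1.35 at 300 nM (-1.59 to -1.10, adjusted p = 8.0e-09) and -1.26 at 30 nM (-1.51 to -1.02, adjusted p = 3.0e-08).

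In AZD-SAR against AZD9496 at 300 nM 5 members were called, all lower, with 8.57% of all genes called and 6.40% called lower. Besides SLC2A1 they were LDHA (-0.80), ALDOA (-0.82), GAPDH (-0.64) and ENO1 (-0.66). The LDHA call held without each single library. Those of ALDOA, GAPDH and ENO1 ended without AZD-SAR 300 nM replicate 1 (adjusted p = 0.068, 0.067 and 0.12), and that of ENO1 also without AZD9496 300 nM replicate 2 (0.070). Restricted to the 6 libraries compared, all 4 ended (adjusted p 0.13 to 0.23). At 30 nM LDHA was the second call beside SLC2A1, with -0.54 (adjusted p = 0.019). There 1.68% of all genes were called and 1.51% called lower, and the LDHA call ended in 5 of 6 fits without 1 library (adjusted p 0.062 to 0.12). The difference between the 2 side chain effects on SLC2A1, the GDC-0810 pair minus the AZD9496 pair, was 0.59 at 300 nM (SE 0.17, adjusted p = 0.18) and 0.44 at 30 nM (adjusted p = 0.89), so it was not called.

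With the SAR439859 side chain on both, AZD-SAR against GDC-SAR called 0 members and 0 genes of the whole table at both doses (0.00%). Unadjusted p was below 0.05 for 0 members at both doses. For SLC2A1 the difference was -0.19 at 300 nM (-0.43 to 0.06) and -0.11 at 30 nM (-0.35 to 0.13). Each hybrid was also set against SAR439859 itself, again with 0 members called, and with 0.00% of genes called at 300 nM, 0.0555% for AZD-SAR and 0.257% for GDC-SAR at 30 nM. SLC2A1 differed by 0.12 (-0.12 to 0.36) with AZD-SAR and 0.31 (0.06 to 0.55) with GDC-SAR at 300 nM. SAR439859 against Fulvestrant gave -0.29 (-0.54 to -0.05) for SLC2A1 at 300 nM and -0.36 (-0.60 to -0.12) at 30 nM, and no member was called (0.00% and 0.0139% of genes).

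AZD9496 and GDC-0810 differ by scaffold. AZD9496 against GDC-0810 at 300 nM called ALDOA (0.75, adjusted p = 0.048) and GAPDH (0.54, adjusted p = 0.048) higher, with 1.12% of all genes called and 1.02% called higher. Each ended in 5 of 6 fits without 1 library (adjusted p 0.068 to 0.36), the exception being GDC-0810 300 nM replicate 3. Without that library SLC2A1 (0.56), HK2 (0.75), GPI (0.55), ENO1 (0.64) and LDHA (0.53) were called as well. At 30 nM 0 members were called, with 0.0208% of genes called. ALDOA differed there by 0.68 (0.32 to 1.04) and GAPDH by 0.48 (0.20 to 0.76).

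No difference between doses was detected. For the 6 ligands, 300 nM against 30 nM called 0 members and 0 of 14404 genes by limma (0.00% each). Unadjusted p was below 0.05 for 0 members with 5 ligands and for 1 member, ENO1, with SAR439859 (-0.33, -0.65 to -0.01). SLC2A1 differed by -0.09 with AZD-SAR, -0.02 with GDC-SAR, -0.0015 with SAR439859, -0.07 with Fulvestrant, -0.01 with AZD9496 and -0.09 with GDC-0810. The 95% intervals of these 6 lay within -0.34 and 0.24.

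Some members moved together between libraries of the same group. Over the 39 libraries, deviations from the group means correlated at 0.91 between ALDOA and GAPDH and at 0.88 between ALDOA and ENO1. SLC2A1 correlated at 0.52 with GAPDH, 0.51 with ENO1, 0.48 with ALDOA and 0.43 with LDHA. PKM correlated at 0.28 with ALDOA and -0.18 with SLC2A1. PGK1 and PFKP had negative values with ALDOA, -0.62 and -0.34. These values share libraries and their scaling and are given as a description. Across the 13 group means SLC2A1 and LDHA correlated at 0.93, SLC2A1 and PKM at 0.88, and SLC2A1 and PGK1 at -0.15.

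The 10 genes whose 13 group means were most like those of SLC2A1, among 3371 with enough range, were E2F1, CCND1, HIST1H2AM, SERPINA3, CELSR2, SLC9A3R1, RET, HR, FKBP4 and ID4. Pearson's r on the log2(TPM + 1) scale was 0.995 for E2F1, a cell cycle transcription factor, 0.994 for CCND1, cyclin D1, and 0.981 for ID4. HIST1H2AM is 1 of many near-identical histone genes, so its level is uncertain. No glycolytic enzyme was among these 10 genes, but most of the member enzymes had too narrow a range of group means to be searched. PKM (r = 0.88 with SLC2A1) was left out in this way, while LDHA (r = 0.93) was searched. CCND1 averaged 90.2 ± 13 TPM with AZD-SAR, 102 ± 9.8 TPM with GDC-SAR, 74.0 ± 5.7 TPM with SAR439859 and 88.7 ± 12 TPM with Fulvestrant at 300 nM. With AZD9496 it averaged 213 ± 18 TPM and with GDC-0810 171 ± 14 TPM, against 267 ± 39 TPM in DMSO. Like SLC2A1, it was not called with AZD9496 (-0.31 at 300 nM, adjusted p = 0.27), and it was picked for its likeness to these group means. With median-of-ratios scaling both genes were called in all 12 comparisons with DMSO, those with AZD9496 included.

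Other genes of sugar metabolism, HIF1 targets, regulators, reference genes and estrogen-regulated controls came from 12 lists. They were read against the 5.93% to 25.6% of all genes that the 12 comparisons with DMSO called. Of 21 other glycolytic enzymes 11 were measured, with 0 to 2 higher and 0 to 4 lower per comparison and list medians from -0.40 to 0.31. ENO3, the enolase of muscle, was higher in 10 of 12 comparisons, with differences from 0.59 to 1.54 over the 12 and 3.39 ± 0.46 TPM in DMSO. Of its calls 6 held without each single library. Of 14 other hexose transporters 5 were measured, with 0 to 1 higher and 0 lower (list medians -0.12 to 0.28). Of 5 PFKFB regulators of phosphofructokinase 4 were measured, with 1 to 2 higher and 0 lower (medians -0.11 to 0.51). PFKFB1, picked out after its values were seen, was higher in 12 of 12 comparisons but reached only 3.40 TPM, against 0.617 TPM in DMSO.

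Among 6 measured lactate and pyruvate transporter genes, 0 to 1 rose and 0 to 2 fell (medians -0.47 to -0.0046). BSG, basigin, the chaperone of the lactate transporters, was lower in 7 comparisons, at 101 ± 64 TPM with AZD-SAR and 96.1 ± 34 TPM with GDC-SAR at 300 nM, against 268 ± 23 TPM in DMSO. Its difference reached -1.70, and 4 of the 7 calls held without each single library. MPC2, a subunit of the mitochondrial pyruvate carrier, was higher in 10, by 0.49 to 0.87 over the 12, and 3 calls held. In the pyruvate dehydrogenase list (11 measured, 0 to 2 higher, 0 to 1 lower, medians -0.03 to 0.15), DLAT, its acetyltransferase subunit, was lower in 9 comparisons. PDK2, a kinase that switches the complex off, was higher in 7, and PDP1, a phosphatase that switches it on, in 11 (0.38 to 0.84 over the 12). Of these calls 6 held for DLAT, 3 for PDK2 and 8 for PDP1.

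The pentose phosphate list (8 measured, 0 to 3 higher, 0 to 4 lower, medians -0.32 to 0.20) was mixed. TKT, transketolase, was lower in 10 comparisons, at 183 ± 84 TPM with AZD-SAR and 175 ± 54 TPM with SAR439859 at 300 nM, against 397 ± 53 TPM in DMSO. PGD, the 6-phosphogluconate dehydrogenase, was lower in 10 as well, with differences from -1.08 to -0.24 over the 12. Of these calls 5 held without each single library for TKT and 8 for PGD. TALDO1, transaldolase, was higher in 8 (0.42 to 0.87 over the 12), as was H6PD, the hexose 6-phosphate dehydrogenase of the endoplasmic reticulum, in 8 (0.17 to 0.82 over the 12). Here 3 calls held for TALDO1 and 7 for H6PD. Neither TKT nor PGD was called with AZD9496 at either dose. In gluconeogenesis (5 measured, 0 to 1 higher, 0 to 1 lower, medians -0.43 to 0.26), FBP1, fructose bisphosphatase, was higher in 7, of which 4 held. In glycogen metabolism (12 measured, 0 to 3 higher, 0 to 2 lower, medians 0.03 to 0.19), PYGL, a glycogen phosphorylase, was higher in 9, of which 8 held.

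**Figure D5:**
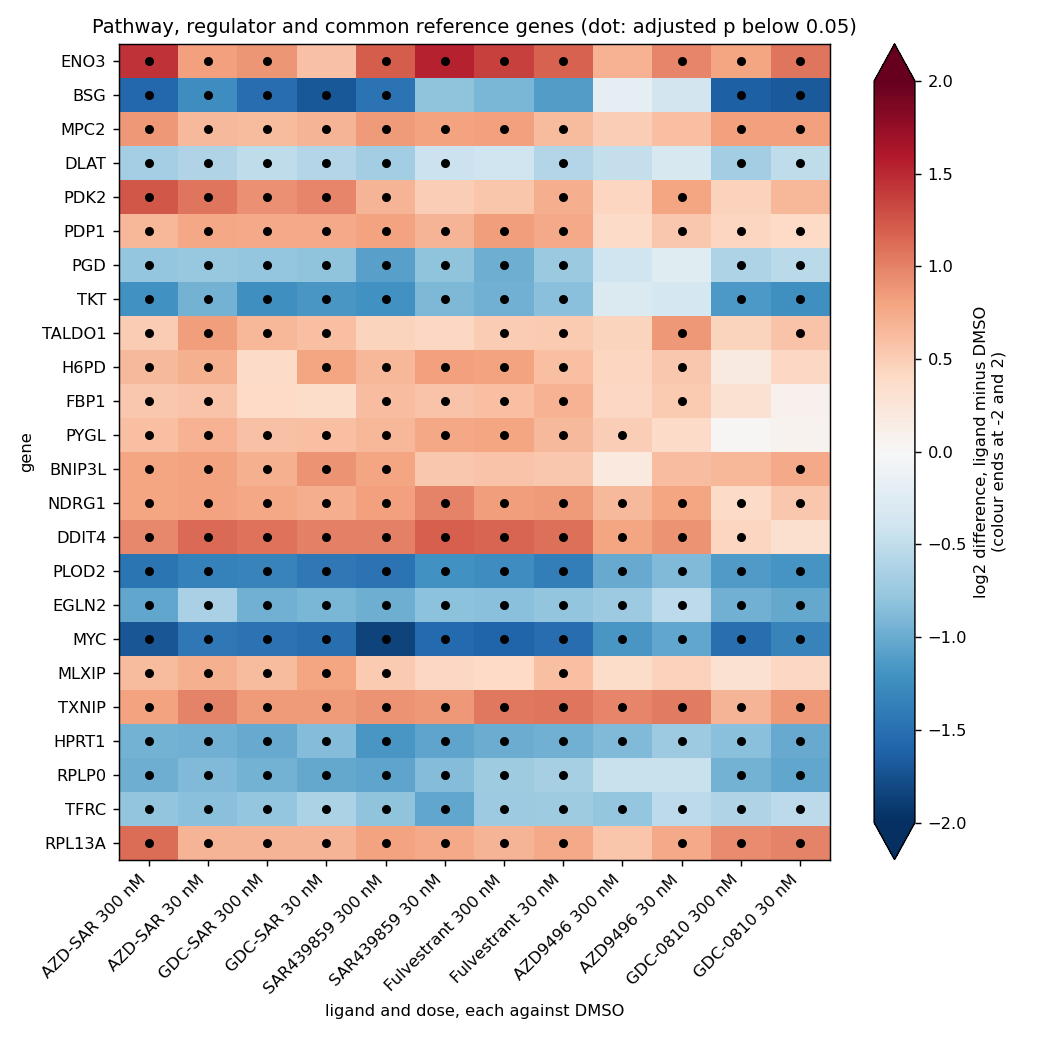
Log2 differences of 24 genes from the pathway, regulator and common reference lists (rows) for each ligand and dose against DMSO (columns), blue for lower and red for higher, with a dot where the adjusted p was below 0.05. MYC, PLOD2, EGLN2, HPRT1 and TFRC are lower and NDRG1 and TXNIP higher in all 12 columns.

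HIF1 targets outside glycolysis did not move one way. Of 18 measured, 2 to 5 were higher and 1 to 5 lower per comparison, with list medians from -0.22 to 0.20. NDRG1 was higher in 12 of 12 comparisons (0.38 to 1.0), with 183 ± 25 TPM with AZD-SAR and 136 ± 9.1 TPM with GDC-0810 at 300 nM, against 105 ± 9.9 TPM in DMSO. DDIT4, an inhibitor of mTOR signalling, was higher in 11 (0.32 to 1.20 over the 12), and BNIP3L, a mitophagy receptor, in 6. Of these calls 10 held without each single library for DDIT4 and 1 for BNIP3L. PLOD2, a collagen lysyl hydroxylase, was lower in 12, by -1.48 to -0.88, and all 12 calls held without each single library. FAM162A was lower in 11 (-0.75 to -0.31 over the 12), with 17.2 TPM in DMSO.

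Among 13 measured regulators of HIF, MYC and glucose sensing, 1 to 3 were higher and 2 to 3 lower (medians -0.16 to 0.16). MYC, which binds E-boxes, was lower in 12, with 19.5 ± 3.0 TPM with AZD-SAR, 17.6 ± 2.2 TPM with SAR439859 and 28.9 ± 3.3 TPM with AZD9496 at 300 nM, against 65.98 ± 2.47 TPM in DMSO. EGLN2, a prolyl hydroxylase of HIF, was lower in 12 (-1.04 to -0.52). TXNIP, which restrains glucose uptake by binding glucose transporters, was higher in 12 by 0.68 to 1.07, and all 12 calls held. It averaged 142 ± 14 TPM with AZD-SAR, 151 ± 15 TPM with SAR439859 and 161 ± 21 TPM with AZD9496 at 300 nM, against 80.6 ± 6.3 TPM in DMSO. MLXIP (MondoA), a glucose-responsive transcription factor, was higher in 6, of which 2 held.

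Of 16 genes commonly used as references, 0 to 3 were higher and 2 to 5 lower per comparison, with medians from -0.13 to 0.20. HPRT1 and TFRC were lower in 12 comparisons, with differences from -1.16 to -0.72 and from -1.05 to -0.52, and RPLP0 was lower in 10. Of these calls 9 held without each single library for HPRT1, 12 for TFRC and 9 for RPLP0. RPL13A was called higher in 11, of which 1 held without each single library, and, with median-of-ratios scaling, in 6. It has many near-identical copies, so its level is uncertain. The estrogen-regulated genes PGR, GREB1 and TFF1 were lower in 12 comparisons, by -3.74 to -1.79, -3.42 to -1.26 and -2.38 to -1.27. Of the 5 measured in that list, 3 to 5 were lower per comparison and 0 higher, with medians from -2.38 to -1.26.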

How the data were processed

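The authors deposited 1 table of TPM values per gene symbol for 39 libraries, each summing to 1000000. Per the labels' protocols, total RNA was DNase-treated and made into stranded NuGEN libraries. STAR and GRCh38 are named in the submitters' processing notes. Versions, annotation and counting tool: not given in the sources used here. TPM is relative, so a change in abundant transcripts shifts all others. The series text speaks of duplicates, the labels give 3 libraries per group. Replicate numbers follow the running library numbers in the titles.

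The 14404 symbols that averaged 1 TPM or more were tested on log2(TPM + 1) with limma 3.58.1 in R 4.3.3, 1 mean per group over 39 libraries (26 residual degrees of freedom, empirical Bayes with trend), which pools the spread of all groups. Adjusted p was by Benjamini-Hochberg over all tested genes within a comparison. There were 32 comparisons of 2 groups and 2 F tests. The test was checked on simulated data. Alternatives changed the pseudocount, filter, scaling, libraries fitted, variance model and pseudogene handling, or left out 1 library. Named list genes were called one way in at least 6 of 12 comparisons with DMSO at 5 TPM or more, at most 4 per list. FAM162A was named beyond this limit. The 10 genes most like SLC2A1 had the highest Pearson correlation of group means. Positions are from GENCODE 29, promoters from RefSeq (GRCh38.p14). The members and lists were chosen with earlier results of these data known.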

Additional observations from a re-analysis of the deposited data

How the results depend on the processing

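No member called in a comparison with DMSO changed sign in any other setting. Robust empirical Bayes, and adding processed pseudogenes to a member, kept all 34 counts of called members within 1.5 times. A pseudocount of 0.1 kept 33, the exception being the F test at 30 nM (2 instead of 4).

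Without an expression filter 28 of 34 counts were kept. Those that moved were 300 nM AZD-SAR against DMSO (3 instead of 5), 30 nM AZD9496 (1 instead of 2), 30 nM GDC-SAR and 30 nM SAR439859 (3 each instead of 5), 300 nM AZD9496 against GDC-0810 (0 instead of 2) and the F test at 30 nM (2 instead of 4). With median-of-ratios scaling 29 were kept, and the counts moved to 1 for 30 nM AZD-SAR against AZD9496, 2 for 300 nM AZD9496 against DMSO, 0 for 300 nM AZD9496 against GDC-0810, 4 for 30 nM Fulvestrant and 5 for 300 nM GDC-SAR against DMSO. This scaling lowered the median of all genes by 0.18 for 30 nM AZD9496 against DMSO and by less than 0.1 elsewhere. Without the SAR439859 30 nM libraries 26 of 28 were kept, 300 nM AZD9496 against GDC-0810 moving to 5 and 30 nM Fulvestrant to 4.

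With only the compared libraries in the fit 25 were kept. Moved were the side chain comparisons, to 1 for both AZD-SAR doses against AZD9496 and 0 for both GDC-SAR doses against GDC-0810, then 300 nM AZD-SAR (2), 30 nM SAR439859 (2) and 30 nM Fulvestrant (5) against DMSO, 300 nM AZD9496 against GDC-0810 (0) and the F test at 300 nM (2).

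Leaving out each library in turn gave 3 to 5 called members for 300 nM AZD-SAR, 2 to 4 for 30 nM GDC-SAR, 2 to 5 for 30 nM SAR439859, 1 to 2 for 300 nM AZD9496 and 1 to 1 for 30 nM AZD9496 against DMSO. It gave 2 to 6 and 1 to 2 for AZD-SAR against AZD9496 at 300 and 30 nM, 0 to 7 for 300 nM AZD9496 against GDC-0810, and 2 to 7 and 2 to 6 for the F tests at 300 and 30 nM. Cause was not tested.

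A replicate block by the order of the running library numbers was added after the PGK1 values were seen. Libraries of the same order deviated together weakly (median correlation 0.053, lowest -0.16, against -0.028 for other orders), so the numbers were not taken to pair libraries, although 29 of 39 lay nearest their own order. With the block 27 of 34 counts were kept, and the others moved to 2 for 300 nM AZD9496, 4 for 30 nM Fulvestrant, 5 for 30 nM GDC-0810 and 5 for 300 nM GDC-SAR against DMSO, 6 and 2 for AZD9496 against GDC-0810 at 300 and 30 nM, and 7 for the F test at 30 nM. SLC2A1 was called with AZD9496 under it (adjusted p = 0.041 for the higher and 0.034 for the lower dose). PGK1 was called higher with 30 nM GDC-0810 (0.0040), and PFKP lower with 300 nM SAR439859 (0.045) and 300 nM Fulvestrant (0.035). Depth is unknown, so no counting error can be given for low genes such as HK2.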
